A study of Homo sapiens with 6 samples.

Results

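Phase II enzymes attach a polar group to foreign compounds, steroids and lipid breakdown products. The genes described here are the 57 protein-coding rows, of 19951 protein-coding rows and 58735 rows in all, whose symbols name a UDP-glucuronosyltransferase or other UGT enzyme (UGT, 22 genes), a cytosolic sulfotransferase (SULT, 13 genes), a soluble or kappa-class glutathione S-transferase (GST, 17 genes), a microsomal glutathione S-transferase (MGST, 3 genes) or an arylamine N-acetyltransferase (NAT, 2 genes). They were chosen by name, with earlier results of these data known. A further 28 rows with matching names are not protein-coding and were left out. The samples are bulk RNA-seq libraries of T47D, an established human luminal breast cancer cell line: 3 control libraries (CK) and 3 libraries of the treated group (CQ). The labels name the exposure as PM2.5, fine airborne particulate matter, and place RNA extraction at 48 h, in wording that is the same for both groups. "Exposed" here means CQ, the group that the design text sets against the controls. The sources used here give no dose, vehicle or particle source, and one cell line in culture stands for the tissue.

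Each family uses its own donor. UGT enzymes of the 1 and 2 families transfer glucuronic acid from UDP-glucuronic acid, SULT enzymes transfer sulfate from PAPS, GST enzymes add glutathione to electrophiles, and NAT enzymes acetylate aromatic amines. Conjugates then leave the cell through ABC transporters. Several of these genes are textbook targets of the aryl hydrocarbon receptor (AhR), which is activated by polycyclic aromatic hydrocarbons and binds the xenobiotic response element, or of NRF2, which is activated by electrophiles and oxidants and binds the antioxidant response element. In breast epithelium the sulfotransferases and sulfatases also handle estrogens.

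Total counts ran from 30970218 to 36878525 per library. At this depth 3 counts correspond to 0.0804 to 0.0969 CPM, the read count scaled for library size. They are taken as the upper limit that a count of 0 allows if counts are independent, and the limit is higher if they are not. CPM values here are scaled by TMM factors, errors are the SD over 3 libraries unless an SE is named, and a log2 fold change is exposed over control. Replicates are described as biological, with no word on separate cultures, so the p-values measure the spread between these libraries and that spread may be technical. All 9 markers of luminal breast epithelium were abundant, with summed levels of 19209 to 21079 CPM in controls and 8122 to 10136 CPM in exposed libraries. Most of that sum was the keratins KRT8, KRT19 and KRT18, at means of 8154, 7504 and 1846 CPM in controls and 3301, 3473 and 883 CPM in exposed libraries. In all, 6 of the 9 fell, where 22.1% of all tested genes fell. FOXA1 fell by 0.27 on the log2 scale, and EPCAM, CDH1 and GATA3 were not called (log2 fold changes of 0.02, 0.08 and 0.04). Of the 4 fibroblast markers, 1 rose and 0 fell. The marker that rose was COL1A2, at means of 0.598 CPM in controls and 1.17 CPM in exposed libraries. Summed levels were 61.3 to 69.6 CPM in controls and 71.8 to 74.8 CPM in exposed libraries. Most of that was COL1A1 (means 61.6 and 69.8 CPM), whose change did not reach an adjusted p under 0.05. None of the 9 endothelial, leukocyte and hepatocyte markers reached the low-count filter, with at most 11 counts in a library, and the hepatocyte marker ALB was at 0 in all 6. The part of the luminal marker fall in the results that follow was not tested. In bulk RNA, fewer cells of a type and less RNA per cell cannot be told apart.

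The phase II genes that T47D expressed were mainly glutathione transferases, and most of those that changed rose modestly. Of the 57 genes, 19 passed the low-count filter and were tested. Of these, 8 rose and 2 fell at an adjusted p under 0.05 (quasi-likelihood test of edgeR, p-values adjusted by Benjamini-Hochberg over 17337 genes). The 10 called genes are 52.6% of those tested, against 43.9% of all tested genes, of which 21.8% rose and 22.1% fell. The median log2 fold change of the 19 was 0.21, against -0.02 over all tested genes. In 11 of the 19 (57.9%) the CPM of the groups did not overlap, 8 with exposed above control and 3 below, against 51.9% of all tested genes. The 8 rises lay between 0.26 and 0.58 on the log2 scale. MGST2, which fell by 0.76, was the one called gene of the 19 that changed at least 1.5-fold, where 8.96% of all tested genes rose and 11.2% fell by that much.

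By family, 13 of the 20 GST and MGST genes were tested, and 7 rose and 2 fell, with a median log2 fold change of 0.26. Without control replicate 1, 4 of these genes rose, and without control replicate 2, control replicate 3 or exposed replicate 3, 1 fell. Of the 13 SULT genes 4 were tested and 1 rose. Of the 22 UGT genes 1 was tested, and of the 2 NAT genes 1 was tested, and neither was called. The summed level of the 57 genes was 856, 977 and 921 CPM in the control libraries and 1073, 1016 and 1002 CPM in the exposed libraries. A single gene, GSTM3, made up 28.2%, 29.6% and 29.8% of that sum in controls and 32.8%, 31.9% and 31.7% in exposed libraries.

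**Figure D1:**
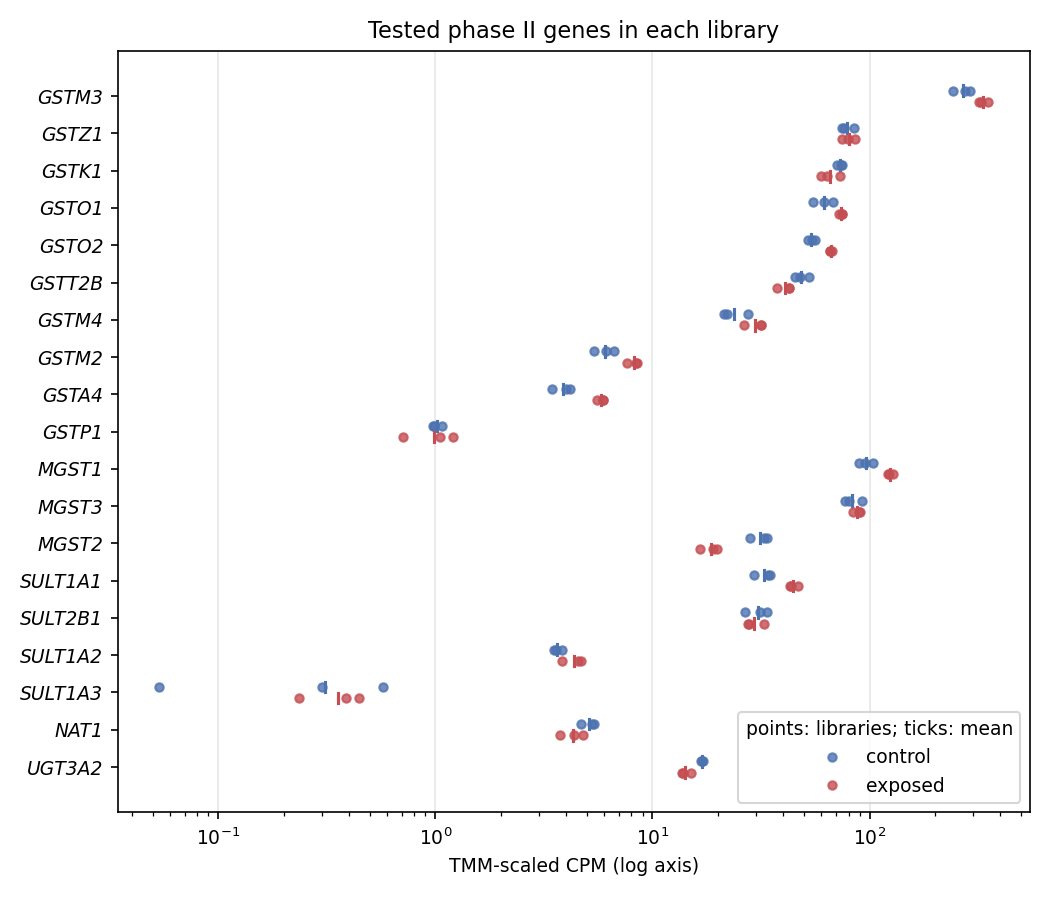
Level of each tested phase II gene in each library (TMM-scaled CPM, log axis; points are the 3 control and 3 exposed libraries, ticks their means). GSTM3 has the highest CPM, MGST2 lies lower in all exposed libraries, and SULT1A3 and GSTP1 lie at about 1 CPM or below.

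The mu class is a cluster of 5 genes within 119348 bases on chromosome 1 (coordinates are GRCh38), and its 3 tested members all rose. GSTM3 (ENSG00000134202, chr1:109733932-109741038, minus strand), a mu-class transferase first described in testis and brain, had counts of 9008, 10046 and 10011 in the control libraries and 11950, 10045 and 11467 in the exposed libraries. Scaled for library size these were 241, 289 and 275 CPM against 352, 325 and 318 CPM, so every exposed library lay above every control. The mean rose from 268 ± 24.5 to 331 ± 18.0 CPM (n = 3 each), and the log2 fold change was 0.30 ± 0.08 (SE, adjusted p = 0.0020). GSTM3 shares 202 of its 4750 exon bases with the antisense gene AL158847.1, which had 46, 15 and 23 counts in controls and 14, 8 and 16 in exposed libraries. How strand was used in the counting is not stated in those sources, so reads of such partners cannot be told apart.

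GSTM4 (ENSG00000168765, chr1:109656081-109674836, plus strand), which conjugates glutathione to electrophiles, had counts of 796, 960 and 805 in controls and 1072, 973 and 949 in exposed libraries. In CPM these were 21.3, 27.6 and 22.1 against 31.6, 31.4 and 26.3, and the groups overlapped through control replicate 2 and exposed replicate 3. Its log2 fold change was 0.33 ± 0.11 (SE, adjusted p = 0.012). GSTM2 (ENSG00000213366, chr1:109668022-109709551, plus strand), a mu-class enzyme abundant in muscle, had 201, 230 and 223 counts in controls and 260, 260 and 306 in exposed libraries. All exposed values in CPM lay above the controls, with means of 6.04 ± 0.622 and 8.18 ± 0.456 CPM and its log2 fold change was 0.44 ± 0.14 (SE, adjusted p = 0.013). Of its 100-base transcript stretches, 87.1% occur in no other gene. The rest are shared, most often with GSTM1. GSTM4 shares 375 of its 5745 exon bases with GSTM2 on the same strand, and 92.9% of its 100-base stretches occur in no other gene. How reads in shared bases were counted is not stated, and their part in both rises was not tested. Without control replicate 1 the calls of GSTM2 (adjusted p = 0.074, range over the settings 0.0089 to 0.074) and GSTM4 (adjusted p = 0.071) were lost, and that of GSTM4 also without control replicate 3 (adjusted p = 0.076, range 0.00031 to 0.076).

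GSTM1 and GSTM5, the other mu-class genes, did not pass the filter. GSTM1, a gene with a common deletion allele, had no count in 5 libraries and 3 counts in exposed replicate 3, and GSTM5 had at most 2 counts in a library. Upstream sequences of the 3 mu-class genes that rose are shown because the neighbours moved together. They are RefSeq windows of GRCh38.p14, reading 5′ to 3′ along the gene towards its start and limited to bases outside annotated exons. Capitals mark the core of the xenobiotic response element, GCGTG on the gene's strand or CACGC where it lies on the other strand.
GSTM2, chr1:109667807-109668021, plus strand: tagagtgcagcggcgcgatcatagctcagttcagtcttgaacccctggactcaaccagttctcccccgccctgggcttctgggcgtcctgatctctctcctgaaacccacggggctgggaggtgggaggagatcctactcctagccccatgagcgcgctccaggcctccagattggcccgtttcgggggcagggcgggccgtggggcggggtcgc
GSTM3, chr1:109741039-109741288, minus strand: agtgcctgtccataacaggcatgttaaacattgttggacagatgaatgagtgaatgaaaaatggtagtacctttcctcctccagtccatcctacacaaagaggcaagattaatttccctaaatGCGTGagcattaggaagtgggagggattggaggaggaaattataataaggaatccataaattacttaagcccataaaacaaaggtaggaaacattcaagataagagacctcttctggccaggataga
GSTM4, chr1:109655849-109656080, plus strand: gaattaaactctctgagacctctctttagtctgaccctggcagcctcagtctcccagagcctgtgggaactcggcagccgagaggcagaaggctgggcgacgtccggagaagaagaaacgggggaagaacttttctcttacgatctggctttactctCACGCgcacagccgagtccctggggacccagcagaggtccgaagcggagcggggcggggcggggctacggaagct
GSTM3 holds 1 such core and GSTM4 holds 1, GSTM2 holds none, and none of the 3 windows holds the core of the antioxidant response element.

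In the alpha class, whose enzymes reduce lipid peroxides and conjugate their products, GSTA4 was the one member above the filter and had the largest rise of the tested members. GSTA4 (ENSG00000170899, chr6:52977948-52995378, minus strand), which conjugates the lipid peroxidation product 4-hydroxynonenal, had counts of 155, 139 and 126 in controls and 200, 184 and 201 in exposed libraries. The exposed values all lay above the controls, with means of 3.87 ± 0.366 and 5.80 ± 0.200 CPM. The log2 fold change was 0.58 ± 0.16 (SE, adjusted p = 0.0044). The liver-type genes GSTA1 and GSTA2 had at most 1 and 2 counts in a library, and GSTA3 and GSTA5 were at 0 in all 6.

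The omega class, which reduces dehydroascorbate and acts as thioltransferase, has both its genes side by side on chromosome 10, with 1413 bases between them, and both rose. GSTO1 (ENSG00000148834, chr10:104235356-104267459, plus strand) had 2056, 2363 and 2242 counts in controls and 2536, 2238 and 2682 in exposed libraries, or 55.1, 68.0 and 61.5 CPM against 74.7, 72.3 and 74.4 CPM. The exposed libraries lay close together and above all controls, and the log2 fold change was 0.26 ± 0.08 (SE, adjusted p = 0.010). The call was lost without control replicate 1, the lowest of the controls (adjusted p = 0.095, range over the settings 0.00036 to 0.095). GSTO2 (ENSG00000065621, chr10:104268873-104304945, plus strand) had 1934, 1879 and 2041 counts in controls and 2229, 2084 and 2375 in exposed libraries. The groups did not overlap in CPM, the means were 54.0 ± 2.09 and 66.3 ± 0.919 CPM, and the log2 fold change was 0.30 ± 0.08 (SE, adjusted p = 0.0027).

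The pi-class gene GSTP1 (ENSG00000084207, chr11:67583595-67586656, plus strand), often the main soluble GST of epithelia, was at a low level. It had 40, 34 and 36 counts in controls and 41, 22 and 38 in exposed libraries, 1.01 ± 0.0513 and 0.991 ± 0.254 CPM. The groups overlapped and the log2 fold change was -0.03 ± 0.34 (SE, adjusted p = 0.95), a spread that leaves changes of the size seen in GSTM3 undetectable. Short upstream stretches of GSTA4, GSTO1 and GSTP1 are shown because these windows hold the core of the antioxidant response element, TGACNNNGC, in capitals with 10 bases on each side (RefSeq, GRCh38.p14, 5′ to 3′ along the gene). The capitals lie upstream of a RefSeq start, the last 10 bases shown for GSTA4 lie past it, and all 4 stretches lie inside the gene as GENCODE draws it, the first GSTO1 stretch outside exons and the other 3 stretches in annotated exons.
GSTA4, chr6:52995275-52995303, minus strand: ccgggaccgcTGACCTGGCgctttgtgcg
GSTO1, chr10:104254656-104254684, plus strand: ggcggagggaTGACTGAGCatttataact
GSTO1, chr10:104254721-104254749, plus strand: cgagatgcttTGACACAGCcccttaagat
GSTP1, chr11:67583736-67583764, plus strand: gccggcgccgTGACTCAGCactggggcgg
Of these genes, GSTA4 and GSTO1 rose and GSTP1 was not called.

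Of the theta, zeta and kappa classes, GSTT2B fell and the others were not called. GSTT2B (ENSG00000133433, chr22:23957414-23961186, minus strand), a theta-class enzyme, had 1689, 1816 and 1735 counts in controls and 1446, 1319 and 1349 in exposed libraries, or 45.3, 52.3 and 47.6 CPM against 42.6, 42.6 and 37.4 CPM. Every exposed library lay below every control, and the log2 fold change was -0.24 ± 0.09 (SE, adjusted p = 0.025). Its adjusted p was 0.089 without control replicate 2, 0.057 without control replicate 3 and 0.21 without exposed replicate 3, each a lost call, and ran from 0.017 to 0.21 over the settings. Just 21.5% of its 100-base transcript stretches are free of a copy in another gene, and its near-identical neighbour GSTT2, annotated as a polymorphic pseudogene, had 21, 28 and 13 counts in controls and 17, 17 and 23 in exposed libraries, so the level of GSTT2B is uncertain.

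GSTZ1 (ENSG00000100577, chr14:77320884-77331597, plus strand), the maleylacetoacetate isomerase of tyrosine breakdown, had 2789, 2929 and 2770 counts in controls and 2913, 2307 and 2865 in exposed libraries. The groups overlapped, and the log2 fold change was 0.03 ± 0.08 (SE, adjusted p = 0.80). GSTK1 (ENSG00000197448, chr7:143244093-143270854, plus strand), the mitochondrial and peroxisomal GST, had 2649, 2572 and 2713 counts in controls and 2473, 1972 and 2157 in exposed libraries. The groups overlapped through exposed replicate 1, and the log2 fold change of -0.16 ± 0.08 (SE, adjusted p = 0.11) passed the threshold when that library was left out (-0.24, adjusted p = 0.034, range over the settings 0.034 to 0.55). GSTT4 was at 0 in all libraries.

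The 3 microsomal transferases, membrane proteins unrelated in sequence to the soluble GSTs, went in different directions. MGST1 (ENSG00000008394, chr12:16347142-16609259, plus strand), which conjugates electrophiles and reduces lipid peroxides in the endoplasmic reticulum and outer mitochondrial membrane, had 3318, 3306 and 3768 counts in controls and 4147, 3955 and 4449 in exposed libraries. In CPM these were 88.9, 95.2 and 103 against 122, 128 and 123, with no overlap, and the log2 fold change was 0.38 ± 0.08 (SE, adjusted p = 0.00015). MGST2 (ENSG00000085871, chr4:139665768-139740745, plus strand), which can join glutathione to leukotriene A4, had 1051, 1165 and 1187 counts in controls and 674, 590 and 599 in exposed libraries. All exposed libraries lay well below the controls, 19.8, 19.1 and 16.6 CPM against 28.2, 33.5 and 32.6 CPM, and the level fell by 0.76 ± 0.10 on the log2 scale (SE, adjusted p = 2.5e-07), 1.70-fold. It shares 252 of its 3182 exon bases with MAML3 on the opposite strand, which had 423, 342 and 377 counts in controls and 201, 235 and 296 in exposed libraries. The part of MAML3 reads in the fall of MGST2 was not tested.

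MGST3 (ENSG00000143198, chr1:165630861-165661796, plus strand), a glutathione transferase and peroxidase of the same membrane family, had 2862, 3189 and 2917 counts in controls and 3057, 2584 and 3226 in exposed libraries. The groups overlapped and the log2 fold change was 0.08 ± 0.08 (SE, adjusted p = 0.43). One of the 3 RefSeq windows of MGST1 is shown, because the gene had the smallest adjusted p among those that rose. It lies inside the annotated gene, upstream of a RefSeq start there and outside exons, and holds neither core.
MGST1, chr12:16347395-16347644, plus strand: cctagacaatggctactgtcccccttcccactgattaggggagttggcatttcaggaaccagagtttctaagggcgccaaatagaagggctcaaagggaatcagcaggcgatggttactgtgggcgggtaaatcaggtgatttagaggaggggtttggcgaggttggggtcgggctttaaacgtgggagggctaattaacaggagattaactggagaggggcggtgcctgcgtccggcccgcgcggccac

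**Figure D2:**
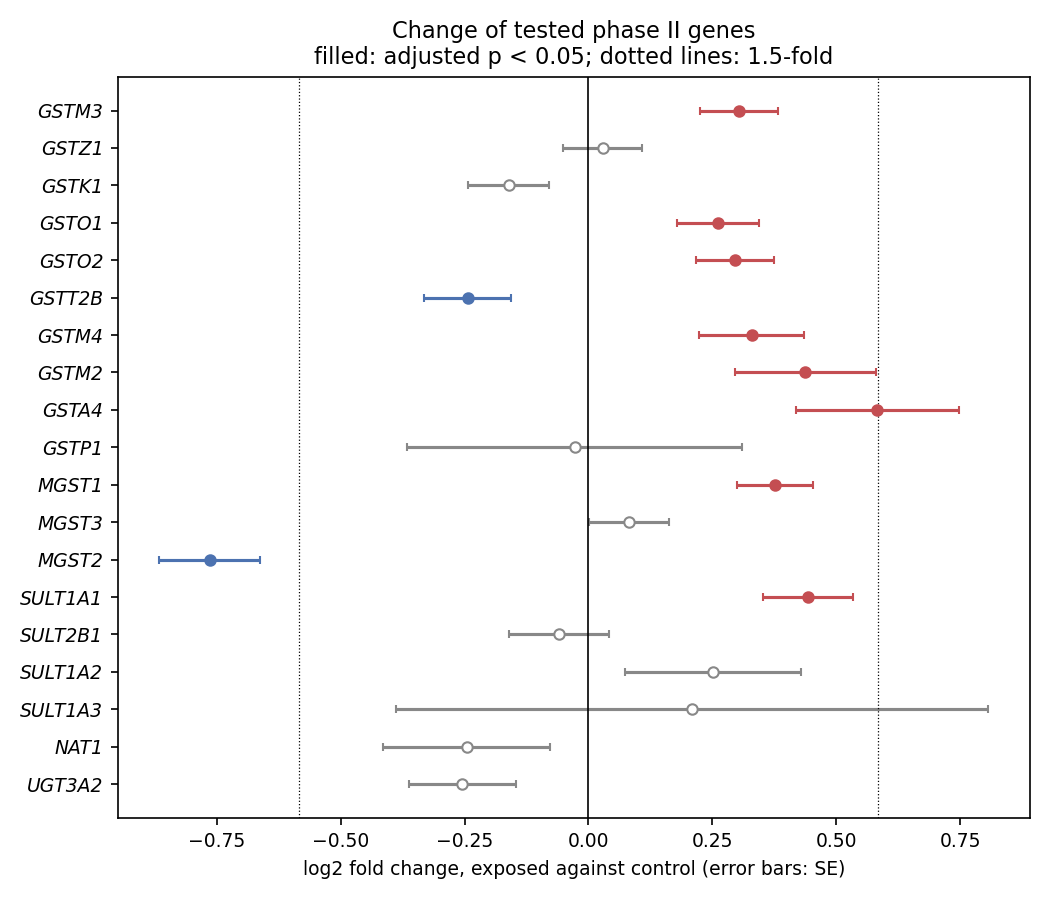
Log2 fold change, exposed against control, of the 19 tested genes (points; bars are the SE; filled points passed at an adjusted p under 0.05; dotted lines mark 1.5-fold). The 8 genes that rose lie between 0.26 and 0.58, and MGST2 at -0.76 is the one point beyond a dotted line with a call.

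Among sulfotransferases, the phenol sulfotransferase SULT1A1 rose and the cholesterol sulfotransferase gene SULT2B1 was not called. SULT1A1 (ENSG00000196502, chr16:28605196-28623625, minus strand), which sulfates phenols and estrogens, had 1266, 1206 and 1066 counts in controls and 1590, 1326 and 1565 in exposed libraries. Scaled, these were 33.9, 34.7 and 29.2 CPM against 46.8, 42.8 and 43.4 CPM, so the groups did not overlap, and the log2 fold change was 0.44 ± 0.09 (SE, adjusted p = 0.00017). Its neighbour SULT1A2, with 8086 bases between the genes, went from 3.65 ± 0.145 to 4.35 ± 0.456 CPM, also without overlap, but with a log2 fold change of 0.25 ± 0.18 was not called (SE, adjusted p = 0.26). SULT1A3, the catecholamine sulfotransferase gene, had 2 to 20 counts, and its log2 fold change was 0.21 ± 0.60 (SE, adjusted p = 0.80). Just 19.6% of its 100-base stretches are free of a copy, the duplicate being SULT1A4 at 0 counts, so its level is uncertain.

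SULT2B1 (ENSG00000088002, chr19:48552075-48599425, plus strand) had 1164, 1173 and 974 counts in controls and 1112, 848 and 1002 in exposed libraries. The groups overlapped and the log2 fold change was -0.06 ± 0.10 (SE, adjusted p = 0.66). SULT1E1, the high-affinity estrogen sulfotransferase, had 1 count in exposed replicate 3 and none elsewhere. SULT1C2, of the 1C subfamily, had 1, 0 and 0 counts in controls and 2, 10 and 11 in exposed libraries, and did not pass the filter. The ratio of 23 exposed counts to 1 control count, scaled for library size, was 24.7. Its exact 95% interval of 4.01 to 1018 covers counting error only and takes each count as independent. Genes with 2 counts outnumbered those with 1 in every library, so counts may not be independent and the interval may be too narrow. SULT1C2 was called higher with no low-count filter (adjusted p = 0.015) and in 4 fits without 1 library (adjusted p of 0.0014 to 0.029). It entered those 4 fits only through its counts in exposed libraries, and the fit with no filter rests on 1 control count. None of these calls is support for a rise. SULT1C4 and SULT4A1 had at most 2 and 5 counts, and SULT1A4, SULT1B1, SULT1C3, SULT2A1 and SULT6B1 were at 0 in all libraries.

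The UGT family was almost silent in these counts. Of its 22 genes, 19 were at 0 in all 6 libraries, among them all 9 genes of the UGT1A locus, the UGT2A genes and UGT2B4, UGT2B7, UGT2B11, UGT2B17 and UGT2B28, which include androgen-conjugating enzymes. UGT2B10 and UGT2B15 each had 2 counts, in control replicate 3 alone. The textbook AhR target UGT1A6 was thus not detected in either group at this depth, and no fold change can be given. The limit for a count of 0, if counts are independent, is 0.0804 to 0.0969 CPM. The UGT1A genes share their last exons, and 20.0% to 59.4% of the exon bases of each (472 to 2475 bases) are free of another gene. If reads in shared exons were left uncounted, which the sources used here do not state, counts could come from those bases alone. The upstream stretches of UGT1A6 that hold a core are shown for this undetected target, the xenobiotic element first and the antioxidant element, at another RefSeq start of the gene, second.
UGT1A6, chr2:233691492-233691516, plus strand: acaggaactcGCGTGccagccaggt
UGT1A6, chr2:233692782-233692810, plus strand: aggtgaaagcTGACACGGCcatagttggt
The sequences are RefSeq, GRCh38.p14, with the core in capitals and 10 bases on each side. The first stretch lies upstream of UGT1A6 as GENCODE 29 draws it, within an annotated exon of another gene. The second lies inside UGT1A6 and outside exons.

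UGT3A2 (ENSG00000168671, chr5:36035017-36071358, minus strand), which uses UDP-glucose and UDP-xylose rather than UDP-glucuronic acid as donor, was the one UGT gene above the filter. It had 633, 581 and 623 counts in controls and 468, 423 and 545 in exposed libraries, 17.0, 16.7 and 17.1 CPM against 13.8, 13.7 and 15.1 CPM. All exposed libraries lay below the controls, but the log2 fold change of -0.25 ± 0.11 missed the threshold (SE, adjusted p = 0.055). It passed with the stricter low-count filter (adjusted p = 0.041) and among protein-coding genes alone (adjusted p = 0.040), over a range of 0.040 to 0.16. UGT3A1 and UGT8, the ceramide galactosyltransferase gene, were at 0. NAT1 (ENSG00000171428), the acetyltransferase common in luminal breast tumours, had 200, 182 and 171 counts in controls and 128, 148 and 157 in exposed libraries. The groups overlapped in CPM (5.10 ± 0.356 and 4.30 ± 0.508) and the log2 fold change was -0.25 ± 0.17 (SE, adjusted p = 0.24). NAT2, the mainly hepatic form, had at most 2 counts in a library.

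Levels were also divided by exon length, here the union of all annotated exons of a gene, which can exceed the length of the transcript expressed. The order of genes depends on that length. GSTO1 and GSTO2, at means of 61.6 and 54.0 CPM in controls, have 1691 and 9921 such bases. In controls, the level was 56.5 ± 5.17 CPM per kb for GSTM3, 44.0 ± 3.26 for GSTT2B, which is uncertain, 36.4 ± 3.83 for GSTO1 and 17.3 ± 0.448 for GSTK1. Next came MGST1 (12.9 ± 0.975 CPM per kb), SULT2B1 (10.8 ± 1.26), MGST2 (9.88 ± 0.901), MGST3 (9.86 ± 0.946) and GSTZ1 (9.24 ± 0.615), whose neighbours in the order overlapped. UGT3A2, GSTO2, GSTM4 and SULT1A1 lay between 6.28 and 3.66 CPM per kb, with GSTM4 and SULT1A1 overlapping. GSTA4, NAT1 and SULT1A2 lay between 1.78 and 1.60 CPM per kb and overlapped. GSTM2, GSTP1 and SULT1A3, the last uncertain, had the lowest levels of the tested genes, at 0.663, 0.530 and 0.121 CPM per kb.

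Upstream windows of 250 bases were matched for 46 of the 57 genes. The core of the antioxidant response element (TGACNNNGC, either strand) was in 10 of their 53 windows, and in 3830 of 35116 RefSeq windows (10.9%). The core of the xenobiotic response element (GCGTG, either strand) was in 14 of the 53, and in 11313 of the 35116 (32.2%). Of the 8 genes that rose 7 had a window: GSTA4 and GSTO1 held the first core, GSTM3, GSTM4 and GSTO2 the second, and GSTM2 and MGST1 neither. Of the 9 tested genes without a call 7 had a window: GSTP1 held the first core, GSTZ1, MGST3 and SULT2B1 the second, and 3 held neither. GSTT2B and MGST2, which fell, had no window. Of the 38 untested genes 32 had a window: 7 held the first core, 7 the second, GSTM5 and UGT1A6 among both, and 20 held neither. A match is a string of letters, not a bound site, and its part in the changes was not tested.

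Some genes around these enzymes changed by more than any of the 19 tested phase II genes. In lists of 61 related genes, chosen from general knowledge with earlier results of these data known, 45 were tested, 21 rose and 10 fell (68.9% called, against 43.9% of all tested genes, median log2 fold change 0.24). With a minimum of 1.5-fold as well, 11 of the 45 rose and 5 fell, where 8.96% of all tested genes rose and 11.2% fell by that much. As the lists were chosen with results known, these counts are a description. Among 14 genes of cofactor supply, 5 rose and 2 fell (50.0% called, against 43.9% of all tested genes). GCLM and GCLC, the subunits of the rate-limiting enzyme of glutathione synthesis, rose from 8.83 ± 0.376 to 48.4 ± 3.56 CPM and from 30.8 ± 2.56 to 51.2 ± 4.60 CPM, log2 fold changes of 2.45 ± 0.10 (SE, adjusted p = 7.5e-19) and 0.73 ± 0.09 (SE, adjusted p = 9.0e-08). GSR, which regenerates glutathione, rose by 0.43 ± 0.08 on the log2 scale (SE, adjusted p = 2.6e-05). UGDH, which makes UDP-glucuronic acid, rose by 0.54, and PAPSS2, which makes the sulfate donor PAPS, fell by 0.62 on the log2 scale, both named after their values were seen.

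Of 6 efflux transporters, 4 rose and none fell (66.7% called, against 43.9% of all tested genes, of which 21.8% rose and 22.1% fell). ABCC3, which exports glucuronide and glutathione conjugates, rose from 2.27 ± 0.636 to 11.0 ± 1.55 CPM (log2 fold change 2.28 ± 0.18, SE, adjusted p = 4.7e-12), and ABCC1 rose from 102 ± 2.02 to 175 ± 1.40 CPM (0.79 ± 0.07, adjusted p = 1.3e-10). ABCG2 rose by 1.73 ± 0.32 on the log2 scale (SE, adjusted p = 3.7e-05). Among the 10 tested transcription regulators of 13 listed, 9 rose: the small MAF partners of NRF2, MAFG (1.75 ± 0.08, adjusted p = 3.5e-17) and MAFF (2.005 ± 0.13, adjusted p = 1.3e-13), and KEAP1, the inhibitor of NRF2 (0.81 ± 0.08, adjusted p = 3.3e-10), had the smallest adjusted p.

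Genes that remove or process conjugates were mixed, 2 of 9 tested rising and 3 falling. That is 55.6% called, against 43.9% of all tested genes, of which 21.8% rose and 22.1% fell. STS, the steroid sulfatase, which undoes the work of sulfotransferases, fell from 4.90 ± 0.309 to 1.77 ± 0.0461 CPM (log2 fold change -1.47 ± 0.20, SE, adjusted p = 2.5e-07). GUSB, the lysosomal beta-glucuronidase, rose from 116 ± 11.0 to 157 ± 7.32 CPM (0.43 ± 0.08, adjusted p = 3.1e-05), and GGT6, a gamma-glutamyltransferase family gene, fell by 0.48 ± 0.08 on the log2 scale (SE, adjusted p = 3.9e-06). Of 4 tested glutathione transferase relatives outside the GST and MGST names, 1 rose and 3 fell, where 43.9% of all tested genes were called. GSTCD rose by 0.46 ± 0.11 on the log2 scale (SE, adjusted p = 0.0012). The eicosanoid enzymes PTGES and LTC4S, which like MGST2 belong to the membrane family, fell by 0.65 ± 0.09 and 0.85 ± 0.31 (SE, adjusted p of 2.5e-07 and 0.026). Among methyl and glycine transferases, TPMT, which methylates thiopurines, fell by 0.62 ± 0.11 on the log2 scale (SE, adjusted p = 2.2e-05).

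**Figure D3:**
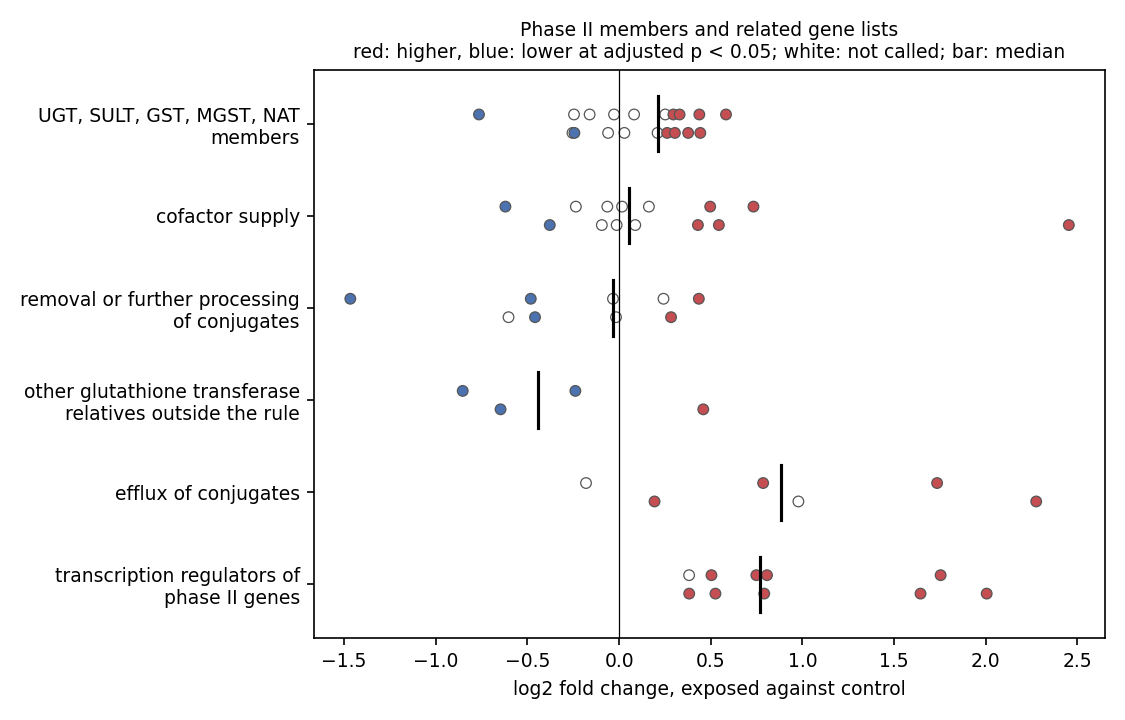
Log2 fold changes of the tested phase II genes and of 5 of the related lists (red, rose; blue, fell; white, no call; bars are medians). The median of the phase II genes is 0.21, that of efflux transporters 0.88 and that of regulators 0.77, while the other glutathione transferase relatives lie at -0.44.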

How the data were processed

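The authors deposited raw counts of reads for each gene in 6 libraries. The genome build was GRCh38, per the submitters' processing notes. Aligner, counter, strand setting and treatment of ambiguous reads: not given in the sources used here. In every library genes with 2 counts (2105 to 2263) outnumbered those with 1 (1280 to 1495). Coordinates, strand and exon length of all 57 genes equalled GENCODE 29. Exposed and control libraries (3 each) were grouped by their titles, and no pair held identical values (chi-square per degree of freedom 7.68 to 16.4).

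The test was that of edgeR 4.0.16 under R 4.3.3, with filterByExpr defaults (minimum count 10, minimum total 15), TMM factors and a robust quasi-likelihood fit, with Benjamini-Hochberg adjustment over 17337 genes and a threshold of 0.05. The SE is the log2 fold change divided by the square root of F. The fit was tested on simulated data. Alternatives were RLE scaling, no or a stricter filter (30 and 45), DESeq2 1.42.0, limma-voom 3.58.1, a 1.5-fold minimum, a replicate block, each library left out in turn, and protein-coding genes alone. Every tested member is named with its log2 fold change, members called with a mean of at least 1 CPM or with at least 5 CPM get their count in each library, and up to 3 genes of each related list with the smallest adjusted p are named, except 1 gene that is not reported here. Members were chosen by name and lists from general knowledge, both with earlier results of these data known. RefSeq windows came from GRCh38.p14, and no protein sequence was used here.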

Additional observations from a re-analysis of the deposited data

How the results depend on the processing

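Of 265 values of the 19 tested members over 14 settings, 239 kept the direction and call, 17 lost the call, 3 gained it and 6 changed sign. Calls of GSTA4, GSTM3, GSTO2, MGST1, MGST2 and SULT1A1 held in all settings run, except that only MGST2 passed a 1.5-fold minimum. With that minimum, 0 members rose and 1 fell (GST and MGST 0 and 1, SULT and NAT 0 higher). Of the 45 tested related genes 11 rose and 5 fell, where 8.96% of all tested genes rose and 11.2% fell by that much. Deviations of same-numbered libraries from their group means had correlations of -0.17, -0.15 and 0.0074, and those of differently numbered libraries ran from -0.13 to 0.26. With 3 libraries in a group these values cannot decide whether libraries were paired. With the replicate block 1 member fell, and 1 of GST and MGST, since GSTT2B missed the threshold (adjusted p = 0.056). Under the stricter filter and among protein-coding genes alone 1 UGT member fell. With no filter 2 SULT and NAT members were called higher, the second being SULT1C2, with at most 11 counts in a library. Leaving out 1 library, members lower ran from 1 to 3, GST and MGST higher from 4 to 7 and lower from 1 to 3. SULT and NAT higher ran from 1 to 2, the second again SULT1C2, whose calls are no support for a rise. No member whose sign changed was called: leaving out 1 library, GSTP1 ran from -0.19 to 0.16, GSTZ1 from -0.0193 to 0.0857, SULT1A3 from -0.29 to 0.996 and SULT2B1 from -0.15 to 0.0182 on the log2 scale. The causes were not tested. Depth limits the 38 untested genes, 27 of which had no count in any library.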
